A study of Homo sapiens with 12 samples.

Results

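The antisense RNAs described here are the 183 genes that the deposited table annotates as antisense and that had at least 600 raw counts summed over all 12 libraries. They were chosen by biotype and by that total count, out of 5583 antisense genes among 58735 genes in the table. Of the 5583, 4100 had any count and 5400 fell below the threshold. The libraries came from Beas-2b, a human cell line made by immortalising airway (bronchial) epithelium. Wild type cells and cells with a CRISPR knockout of ANT1 were each grown in control medium or given bleomycin (10 mg/ml for 2 days, per the labels), a drug that breaks DNA and was used to induce senescence. ANT1, the product of SLC25A4, is a mitochondrial carrier that trades ADP for ATP. Each of the 4 groups, WT control, WT bleomycin, KO control and KO bleomycin, had 3 libraries of poly-T selected RNA, called biological replicates in the design text. How many knockout clones the KO libraries represent was not found in the labels, and effects of genotype and of a clone cannot be told apart.

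An antisense RNA is transcribed from the strand opposite to a coding gene that it overlaps or neighbours. Some share a start region with the coding gene and are made divergently from it, some run into its end, and some lie wholly within its introns. Single antisense RNAs are known to recruit chromatin modifiers to the coding gene, to change its splicing or RNA stability, or to act away from it, and others serve as precursors of small nucleolar RNAs or microRNAs.

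Whether a read is assigned to a strand decides what a count of an antisense gene means. The library protocol in the labels names both a directional and a non-directional variant, and no strand setting is given in the sources used here. The counts themselves settled how overlapping exons were treated. Of 316 antisense genes whose exon bases all lie within exons of opposite-strand genes, 0 had any count, against 1772 of 2374 antisense genes that share no exon base (74.6%). The same held for lincRNA genes (0 of 52 against 59.6%) and for protein-coding genes, where 1 of 17 had a single count against 90.9%. Reads over bases that belong to exons of both strands were thus left out, which happens when counting ignores strand. The value of an antisense gene below is therefore the number of reads of either strand over its unshared exon bases. Antisense RNA and unspliced RNA of the sense gene cannot be told apart where those bases lie in a sense intron. The same holds outside introns for any sense RNA that runs past its annotated end. The median member shared 9.82% of its exon bases with other genes and had 37.52% of them in introns of opposite-strand genes. A total of 35 members shared no base and 9 shared over 50%.

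**Figure D1:**
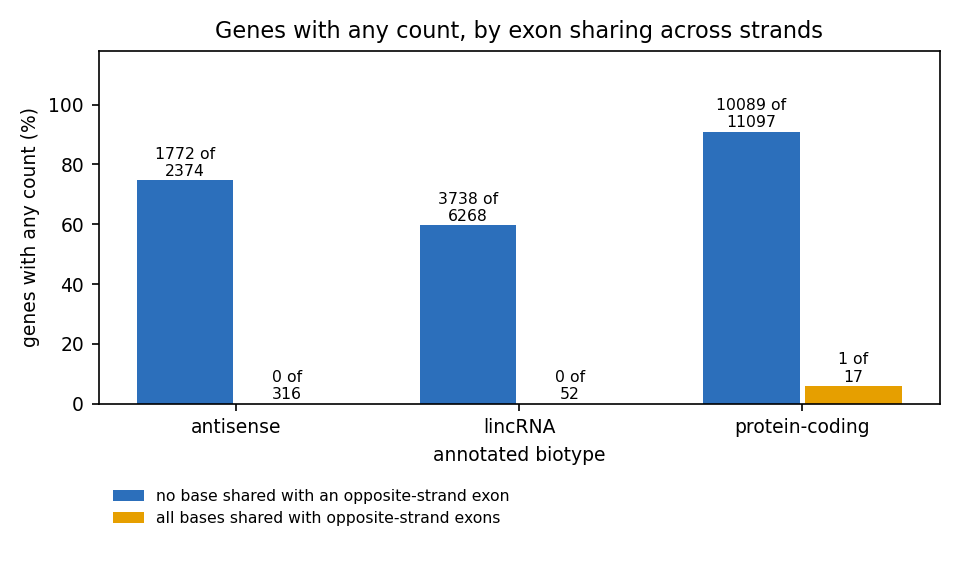
Percentage of annotated genes with any count over the 12 libraries (y axis), by biotype (x axis), for genes that share no exon base with an opposite-strand exon (blue) and genes whose exon bases are all shared (orange). None of the 316 fully shared antisense genes had a count, against 1772 of 2374 that share none.

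Promoter windows, 250 bases before to 50 bases after the RefSeq start, were found for 107 of the 183 members (RefSeq, GRCh38.p14). Their median GC content was 64.3%, against 58.7% over all 35116 windows of the table. The windows were searched on both strands for 6 motifs, chosen with the p53 response, oxidative stress, amino acid stress and cell cycle control in view. The p53 response element was found in 0 of 107 member windows and in 0.03% of all windows. The antioxidant response element (ARE, TGACNNNGC) was in 14.95% of member windows and 13.35% of all. The AP-1 site (TGANTCA) was in 7.48% and 7.71%, and the CCAAT box, bound by NF-Y, in 35.51% and 34.61%. The cell cycle homology region (CHR, TTTGAA) was in 8.41% of member windows against 15.16% of all, and the CARE element bound by ATF4 (TGATGNAA) in 0.93% against 3.62%. A match is a description of the letters and not a measured binding site.

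Windows of 4 members that changed under bleomycin in both genotypes are shown, picked after their values were seen because each holds one of these motifs. Capitals mark the AP-1 and ARE matches in UNC5B-AS1 (chr10:71218179-71218478, minus strand) and LUCAT1 (chr5:91314353-91314652, minus strand), the AP-1 matches in DLGAP1-AS2 (chr18:3603487-3603786, plus strand) and the CCAAT boxes in SNHG10 (chr14:95534823-95535122, minus strand), where a reversed box reads ATTGG. In LUCAT1 the AP-1 and ARE matches overlap.
UNC5B-AS1: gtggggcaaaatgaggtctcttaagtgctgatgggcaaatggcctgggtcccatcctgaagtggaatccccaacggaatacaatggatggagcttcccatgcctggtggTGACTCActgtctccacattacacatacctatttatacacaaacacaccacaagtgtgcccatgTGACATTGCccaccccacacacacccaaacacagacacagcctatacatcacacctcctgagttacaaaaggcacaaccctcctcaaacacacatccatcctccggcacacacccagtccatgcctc
LUCAT1: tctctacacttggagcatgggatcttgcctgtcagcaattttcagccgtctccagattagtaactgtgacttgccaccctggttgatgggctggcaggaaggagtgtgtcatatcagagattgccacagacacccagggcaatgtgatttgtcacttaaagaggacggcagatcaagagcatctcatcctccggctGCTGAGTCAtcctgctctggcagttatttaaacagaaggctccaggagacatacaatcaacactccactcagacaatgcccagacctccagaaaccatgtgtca
DLGAP1-AS2: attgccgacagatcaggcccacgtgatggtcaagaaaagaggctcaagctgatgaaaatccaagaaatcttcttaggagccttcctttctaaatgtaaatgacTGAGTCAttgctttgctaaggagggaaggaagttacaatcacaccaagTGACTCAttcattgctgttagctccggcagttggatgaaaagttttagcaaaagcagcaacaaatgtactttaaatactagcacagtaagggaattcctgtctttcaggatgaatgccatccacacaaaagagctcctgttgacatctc
SNHG10: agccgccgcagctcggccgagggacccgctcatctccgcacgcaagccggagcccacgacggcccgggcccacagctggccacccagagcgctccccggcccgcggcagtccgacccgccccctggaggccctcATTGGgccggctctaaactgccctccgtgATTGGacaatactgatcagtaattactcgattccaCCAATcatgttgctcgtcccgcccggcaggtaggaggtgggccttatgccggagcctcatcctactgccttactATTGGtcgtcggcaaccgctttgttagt

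Counted from the first transcribed base as 0, the AP-1 match of UNC5B-AS1 lay at -141 to -135 and its ARE at -77 to -69. In LUCAT1 the AP-1 match lay at -52 to -46 and the ARE at -54 to -46. DLGAP1-AS2 had AP-1 matches beginning at -147 and -99, and a CARE match at -201 that is not in capitals. Its RefSeq start lies 737 bases from the start in the annotation that the counts used, and that of LUCAT1 lies 145 bases away. The boxes of SNHG10 began at -116, -87, -52 and 22. UNC5B-AS1 and DLGAP1-AS2 rose under bleomycin, and LUCAT1 and SNHG10 fell, as described below.

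Library depth ran from 15.754 to 21.924 megacounts. SLC25A4, given as below in CPM (counts per megacount of a library scaled by edgeR), reached at most 6.97 CPM in the KO libraries and at least 16.1 CPM in the WT libraries. KO control library 2 stood apart from the rest. Mitochondrial genes held 0.364% of its counts, against 3.86% to 5.13% in the other 11 libraries. Among members it was the highest of all 12 libraries for 37 and the lowest for 55, against 3 to 37 and 3 to 32 for the others. Over all genes tested it was highest for 26% and lowest for 24%. Keratins KRT7, KRT8, KRT18 and KRT19 were at or above 1 CPM in every library, while EPCAM and CDH1 averaged between 0.937 and 2.45 CPM by group and the basal markers KRT5 and TP63 stayed under 1 CPM. Of 6 fibroblast markers, COL1A1 and COL1A2 were at or above 1 CPM in every library and LUM was at 0. The sum of all 6 ran from 478 to 1203 CPM in 11 libraries and reached 3487 CPM in KO control library 2. None of 5 leukocyte or 4 endothelial markers was at or above 1 CPM in every library (summed 0 to 0.516 and 2.14 to 4.04 CPM). The part of these differences in the results below was not tested. For several values that rest on KO control library 2, the value without it is also given.

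Most members were expressed at a low level. Their total counts ran from 606 to 36320 with a median of 1060. Just inside the threshold were LUARIS (610 counts), AL138724.1 and UBL7-AS1 (606 each), and just outside it AC091729.3 (595), FRMD6-AS1 and MZF1-AS1 (589 each). Per length, the median member had a mean FPKM (fragments scaled by exon length and library size) of 1.82, against 2.37 for 166 lincRNA genes and 7.46 for 11397 protein-coding genes that reach the same count. The sense partner, taken as the opposite-strand protein-coding gene with the largest overlap, or failing that the gene in the symbol, was found for 174 members. In 52 of these 174 pairs the antisense gene had the higher mean FPKM. The length used includes shared exon bases, whose reads were left out. FPKM is thus too low by a different amount in each gene of an overlapping pair. A total of 55 members were arranged head to head with the partner, 54 tail to tail, 45 lay inside it, 14 contained it and 6 were divergent without overlap. For 14 members the symbol names another gene than the partner. ELF3-AS1, for example, shares 10452 bases of its span with RNPEP, its partner here, and 2519 with ELF3.

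AC099850.3, which lies inside PRR11, a gene of mitotic progression, had the highest FPKM of the members. Its deposited FPKM was 89.5, 82.8 and 85.1 in WT control, 32.0, 31.9 and 30.4 in WT bleomycin, 77.1, 53.3 and 70.3 in KO control, and 34.8, 32.3 and 38.2 in KO bleomycin. All 6 bleomycin libraries lay below all 6 control libraries. Of its 321 exon bases, 69.8% lie in PRR11 introns, and its level exceeded that of PRR11 (mean 54.8 against 33.9 FPKM), with the limit of FPKM between overlapping genes given above.

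FGD5-AS1, a widely expressed antisense RNA, had the most counts and the second highest level, between 26.6 and 36.9 FPKM in every library. It had 34.7 to 36.9 FPKM in WT control and 26.6 to 29.9 in WT bleomycin. In KO cells it had 32.7 to 35.3 in control and 28.3 to 29.7 in bleomycin, with no overlap between media. Its partner FGD5, a guanine exchange factor of endothelial cells, had a mean of 0.0103 FPKM. ZFAS1, a host of small nucleolar RNAs, had 9.10 to 11.1 FPKM in WT control, 20 to 22.7 in WT bleomycin, 8.48 to 10.9 in KO control and 16.5 to 22.5 in KO bleomycin, with no overlap between media. LOXL1-AS1 was at 16.0 ± 2.77 FPKM in WT control and 4.89 ± 0.437 in WT bleomycin (SD, n = 3).

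The remaining high members were TGFB2-AS1 (mean 28.3 FPKM), AC005288.1 (15.6), AL513165.1 (14.4), RGMB-AS1 (9.73), AC093673.1 (9.64) and SNHG7 (8.79). In 5 of these 6, all but RGMB-AS1, KO control library 2 was the highest or lowest of the 12 libraries. SNHG7, another small nucleolar RNA host, had 6.61 and 6.58 FPKM in the other KO control libraries and 19.5 in this one. TGFB2-AS1 had 39.0 and 34.9 FPKM in the others and 17.0 in this one.

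**Figure D2:**
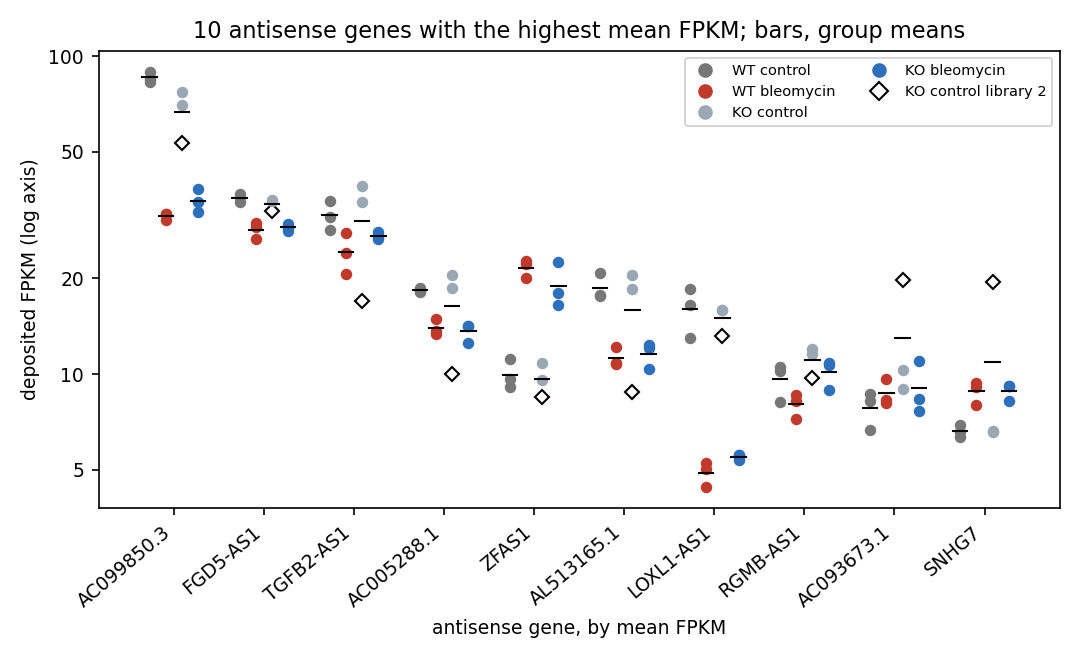
Deposited FPKM (y axis, log scale) of the 10 members with the highest mean (x axis), 1 point per library coloured by group, with group means as bars and KO control library 2 as open diamonds. AC099850.3, FGD5-AS1 and LOXL1-AS1 were lower and ZFAS1 higher in all bleomycin libraries. SNHG7 reached 19.5 FPKM in KO control library 2 against 6.34 to 9.37 elsewhere.

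Bleomycin in wild type cells raised a set of antisense RNAs that were near the detection limit in control medium. AC097478.1, UNC5B-AS1 and AL035681.1 rose 83.0-fold, 77.7-fold and 47.1-fold, while LUCAT1 and LOXL1-AS1, both well expressed in control medium, fell 5.28-fold and 3.25-fold. With edgeR's quasi-likelihood test (Benjamini-Hochberg adjusted p under 0.05 over all genes), 50 of 183 members were higher and 22 lower. That is 39.3%, against 43.5% of the 16702 genes tested, of which 23.9% were higher and 19.6% lower. The share of members called was thus near that of all genes. The median member changed by 0.16 on the log2 scale, against 0.02 for all genes. A total of 32 members rose and 10 fell at least 2-fold, a cut for which the share of all genes is not given here. Of the lincRNA genes at the same count, 66 of 166 rose and 27 fell, and of the protein-coding genes 2532 of 11397 rose and 2805 fell. Without KO control library 2, which enters through the shared spread, 65 members were higher and 33 lower, with 56.6% of all genes called. All 183 members passed the filter on low counts. The rule itself favours change in one direction for some: 31 members would miss 600 counts had the bleomycin libraries held only the control sum, and 25 of them were higher. A total of 12 would miss it in the reverse case, and 5 of them were lower. Of the remaining 140, 25 were higher and 17 lower. The 31 include the largest risers named below, AC097478.1, UNC5B-AS1, AL035681.1, AL135905.1, AC010457.1 and C1QTNF1-AS1. They also include TNFRSF10A-AS1, POLH-AS1, AC093495.1 and AC022075.1, and the 12 include AC097534.2, CAPN10-DT and H1FX-AS1. These genes are members through the medium where they are high, so the rule favours their change.

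AC097478.1 (ENSG00000251095) rose most in wild type cells. It had 0.661, 0.454 and 0.432 CPM in WT control and 40.5, 46.7 and 42.9 CPM in WT bleomycin, an 83.0-fold rise (log2 fold change 6.38, SE 0.19, edgeR adjusted p = 7.15e-11). In KO cells it went from 0.725, 0.995 and 1.04 to 26.3, 34.9 and 29.3 CPM, or 32.5-fold. The groups did not overlap in either genotype. Only 1.52% of the exon bases of AC097478.1 lie in introns of opposite-strand genes.

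UNC5B-AS1 (ENSG00000237512, chromosome 10, 71217224 to 71218228) lies wholly within an intron of UNC5B, a netrin receptor known as a p53 target. Its 3 WT control libraries held 5 counts together and its WT bleomycin libraries 387, a ratio of 86.3 (95% exact counting interval 36.7 to 267, counting error only). In KO cells it went from 5 to 360 counts (70.4, interval 29.9 to 218). In edgeR the rise was 77.7-fold in WT (log2 6.28, SE 0.51, adjusted p = 4.99e-07) and 64.2-fold in KO cells. With 1 library left out the rise ran from 53.4-fold to 127-fold in WT cells (127-fold without WT control library 3) and in KO cells from 44.7-fold, without KO control library 2, to 98.6-fold, without KO control library 3. UNC5B rose as well, from 0.509, 0.454 and 0.757 to 11.7, 13.1 and 12.7 CPM in WT cells. Since all exon bases of UNC5B-AS1 lie in UNC5B introns, reads of unspliced UNC5B RNA would be counted here too.

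AL035681.1 (ENSG00000235513, chromosome 22, 41209122 to 41217627), inside L3MBTL2, a Polycomb-related gene, rose without a called change in its host. It had 0.153, 0.227 and 0.162 CPM in WT control and 9.39, 9.52 and 7.80 CPM in WT bleomycin (47.1-fold, log2 5.56, SE 0.34, adjusted p = 3.29e-08). The WT control libraries held 11 counts and the bleomycin libraries 494. L3MBTL2 was at 42.7, 41.0 and 38.8 CPM in WT control and 34.4, 36.6 and 31.6 in WT bleomycin, and did not pass (-0.26, SE 0.21, adjusted p = 0.349). Each bleomycin library lay above each control library for AL035681.1.

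The next largest rises in WT cells were those of AL135905.1, AC010457.1 and C1QTNF1-AS1. AL135905.1 lies inside PTP4A1, a gene of a protein tyrosine phosphatase, and went from 0.458, 0.409 and 0.649 to 9.81, 9.57 and 9.35 CPM (18.9-fold). The counts of PTP4A1 over its unshared bases also rose (log2 2.84, SE 0.28). AC010457.1 overlaps the end of EGFLAM, which encodes an extracellular matrix protein, and went from 0.509, 0.272 and 0.0541 to 5.27, 6.36 and 4.59 CPM (18.7-fold, and 30.2-fold without WT control library 1). C1QTNF1-AS1, head to head with the secreted-protein gene C1QTNF1, went from 1.07, 1.5 and 1.14 to 13, 14.7 and 16.5 CPM (11.8-fold). In each of these 3 genes the groups did not overlap. On the log2(FPKM + 1) scale, which compresses low levels, the rise of AC097478.1 was 7.43-fold and that of UNC5B-AS1 9.57-fold.

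LUCAT1 (ENSG00000248323, chromosome 5, 91054834 to 91314547), an antisense RNA first known from lung cancer and induced by the oxidative stress factor NRF2, fell most. It had 27.2, 31.8 and 35.7 CPM in WT control and 7.23, 5.04 and 5.61 in WT bleomycin (5.28-fold lower, log2 -2.40, SE 0.16, adjusted p = 7.57e-08). In KO cells it went from 27.2, 20.8 and 25.6 to 7.30, 6.54 and 6.96 CPM (3.54-fold lower). Its partner ADGRV1, an adhesion receptor gene, was near the detection limit, between 0.102 and 0.270 CPM in WT control and 0.723 and 1.61 in WT bleomycin. The starts of the genes lie 785203 bases apart.

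LOXL1-AS1 runs head to head with LOXL1, an enzyme that crosslinks elastin and collagen. It went from 55.0, 78.7 and 69.6 CPM to 22.4, 18.8 and 21.3 in WT cells (log2 -1.70, SE 0.13) and from 67.5, 55.8 and 67.5 to 23.9, 22.8 and 23.7 in KO cells (log2 -1.44, SE 0.13). LOXL1 fell less, by 0.57 on the log2 scale in WT and 0.40 in KO cells. CAPN10-DT, which starts 17 bases from the protease gene CAPN10, fell 2.78-fold in WT cells, from 6.36, 5.81 and 7.24 to 2.94, 2.24 and 1.76 CPM, while CAPN10 did not pass (-0.10, adjusted p = 0.730). ELF3-AS1 fell 2.45-fold, from 6.56, 8.22 and 7.73 to 3.25, 2.75 and 3.15 CPM. ELF3, an epithelial transcription factor and the gene in its name, fell 32.9-fold, and its overlap partner RNPEP, an aminopeptidase, did not pass (-0.10, adjusted p = 0.695).

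AC099850.3 fell 2.71-fold (log2 -1.44, SE 0.13) beside PRR11 (-1.52, SE 0.10), and AC097534.2, head to head with SAP30, a subunit of the Sin3 deacetylase complex, fell 3.12-fold (-1.64, SE 0.39) beside SAP30 (-1.20, SE 0.29). Bulk libraries do not tell fewer cells of a kind from less RNA per cell, which holds for all these changes.

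**Figure D3:**
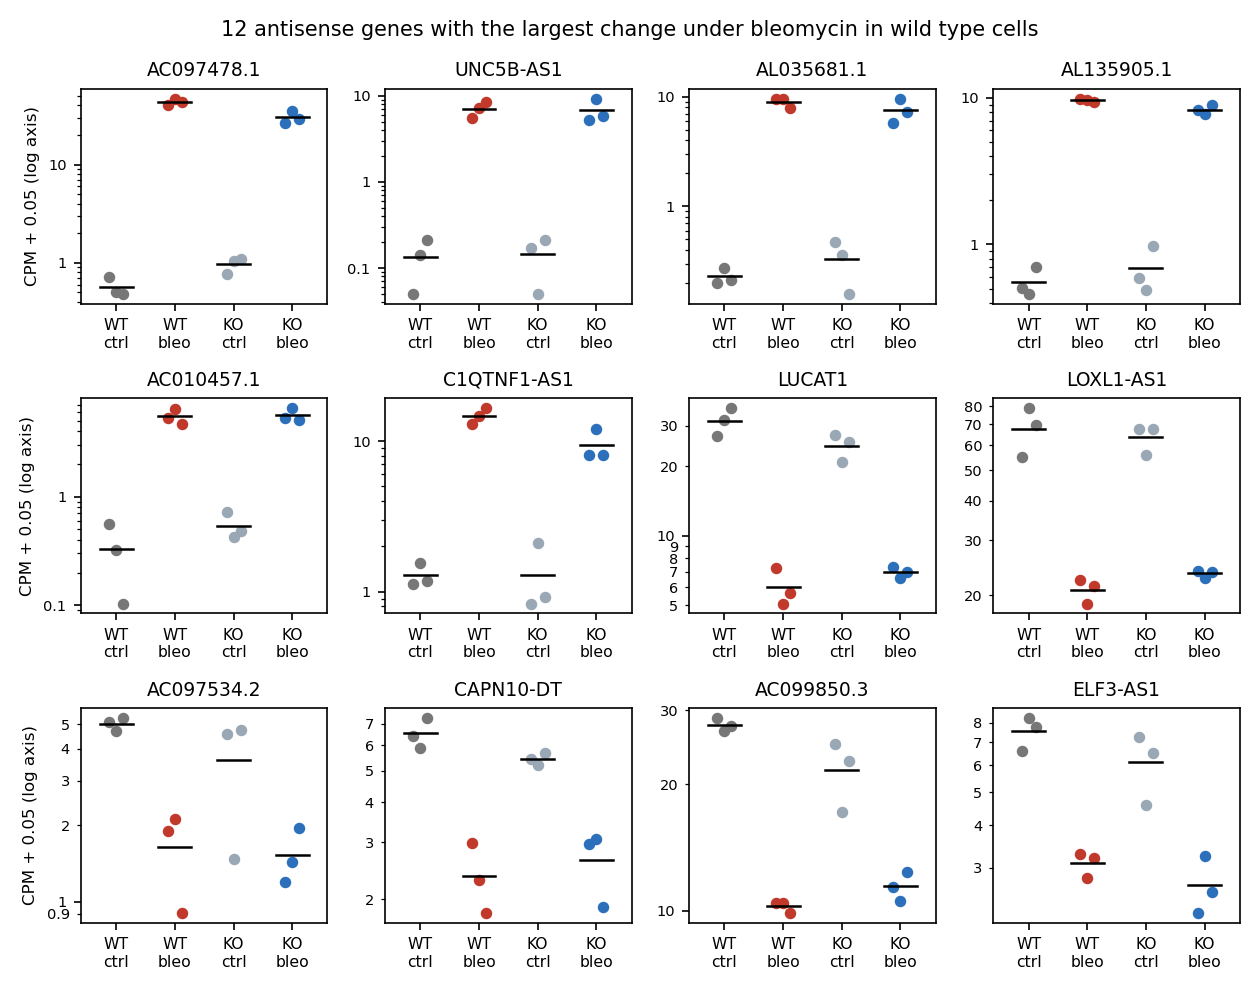
CPM plus 0.05 (y axis, log scale) in each of the 12 libraries, by group (x axis), for the 6 members with the largest rise and the 6 with the largest fall under bleomycin in wild type cells, with bars at group means. In all 12 panels the WT groups do not overlap, and AC097534.2 in KO control library 2 (1.43 CPM) lies within the KO bleomycin values.

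Bleomycin in ANT1 knockout cells changed nearly as many members, and the most strongly rising genes were again UNC5B-AS1, AC097478.1 and AL035681.1. Of 183 members, 49 were higher and 22 lower by edgeR, or 38.8%, against 43.2% of all genes (22.5% higher, 20.7% lower). The median was 0.13, against 0.00 for all genes. Called in both genotypes were 41 of the risers (82% of the wild type and 83.7% of the knockout ones) and 18 of the fallers (81.8% of each). None was called in opposite directions. The rule sums counts over both genotypes, so it favours a rise in both for members that reach it through the bleomycin libraries. The overlap over all genes, and over the 140 members that reach it in both media, is not given here. A total of 26 members rose and 7 fell at least 2-fold in both genotypes, again without a share of all genes at that cut. Without KO control library 2, 56 members were higher and 23 lower, with 48.4% of all genes called. Of the original calls, 46 of the 49 higher and 17 of the 22 lower remained. Of the members that reach 600 counts through the bleomycin libraries 25 of 31 were higher, of those that reach it through control 4 of 12 were lower, and of the other 140, 24 were higher and 18 lower.

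AL035681.1 rose 26.4-fold in KO cells, from 0.423, 0.311 and 0.109 to 5.71, 9.52 and 7.12 CPM, AL135905.1 rose 12.7-fold and AC010457.1 11.2-fold. TNFRSF10A-AS1 overlaps the end of TNFRSF10A, which encodes a death receptor for the ligand TRAIL. It went from 0.363, 0.373 and 0.874 to 4.32, 4.31 and 4.68 CPM (8.03-fold, log2 3.01, SE 0.31, adjusted p = 6.41e-06), and TNFRSF10A rose with it (1.87, SE 0.23).

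H1FX-AS1, head to head with the linker histone gene H1FX, went from 4.41, 6.78 and 3.5 to 1.65, 1.01 and 1.36 CPM in KO cells (3.66-fold lower). Its rank as the largest fall rested on KO control library 2. Without that library H1FX-AS1 was 2.97-fold lower, behind LUCAT1 (3.82-fold) and AC097534.2 (3.11-fold). H1FX fell by 0.95 on the log2 scale. SNHG10 had 5.2, 13.1 and 5.9 CPM in KO control, the 13.1 in library 2, and 2.73, 3.30 and 2.88 in KO bleomycin. It fell 2.70-fold with all libraries and 1.87-fold without KO control library 2, and passed both times. In WT cells SNHG10 went from 6.31, 6.4 and 5.78 to 3.51, 3.5 and 3.04 CPM (-0.88, SE 0.29, adjusted p = 0.0259), a call lost when any of 5 WT libraries was left out (adjusted p 0.0566 to 0.0808). UCKL1-AS1 depended on the same KO library. It had 6.04, 17.4 and 6.39 CPM in KO control and 4.44, 3.77 and 3.97 in KO bleomycin (2.44-fold lower, adjusted p = 0.0299), and without KO control library 2 it was 1.54-fold lower with adjusted p = 0.148. Its call was lost under 5 other settings as well. ELF3-AS1 was 2.31-fold lower.

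For SNHG7, KO control library 2 set the sign. With it the KO change was -0.29 (adjusted p = 0.503). Without it SNHG7 rose by 0.43 on the log2 scale (adjusted p = 0.000694). In WT cells the change was 0.43 (SE 0.32, adjusted p = 0.319).

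**Figure D4:**
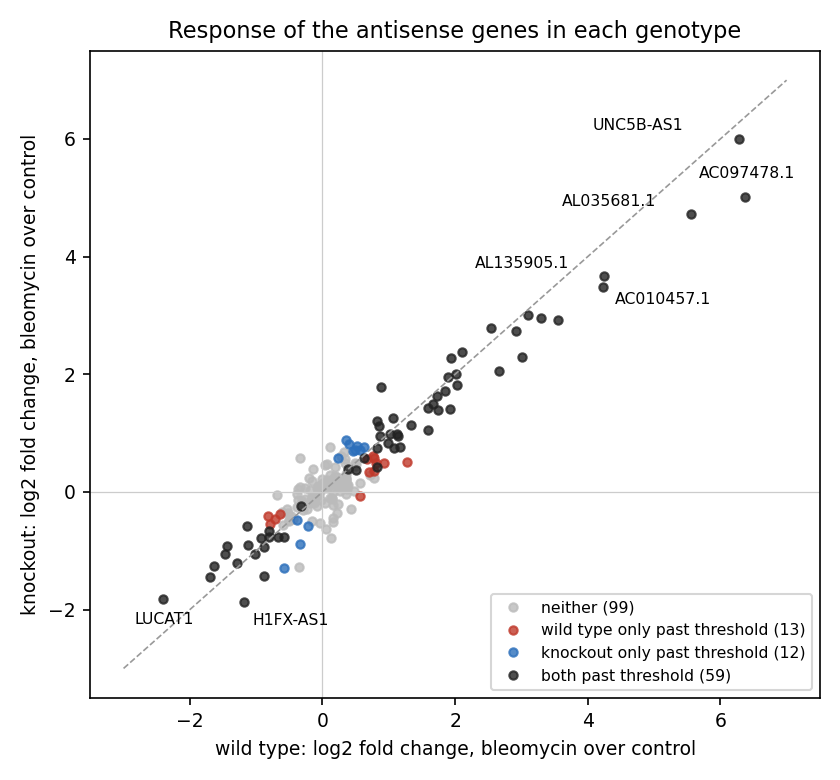
Log2 fold change under bleomycin in wild type cells (x axis) and in knockout cells (y axis), 1 point per member, coloured by the genotype in which it passed edgeR's test at adjusted p under 0.05. The dashed line marks equal change. The 59 members called in both genotypes moved in the same direction in each. The share of all genes that did so is not given here.

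The 4 members taken by symbol (SNHG or ZFAS1) as small nucleolar RNA hosts did not share a direction. Other hosts were not sought by position. ZFAS1 rose 2.19-fold in WT (log2 1.13, SE 0.14, adjusted p = 1.86e-05) and 1.98-fold in KO cells. SNHG12, named here after its values were seen, like DLGAP1-AS2, DLEU2, AC020916.1, GABPB1-AS1, ENTPD1-AS1, STXBP5-AS1 and the members named only with alternatives below, rose 2.20-fold in WT, from 12.8, 15.3 and 16.2 to 32.1, 34.1 and 31.5 CPM, and 1.94-fold in KO cells. SNHG10 fell, and SNHG7 depended on 1 library as given above.

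Of 34 genes on a list drawn up here as p53 targets, 3 were partners of members. The count depends on that list. It holds CDKN2B, whose regulation by p53 was not tested here, and leaves out UNC5B and TNFRSF10A. POLH-AS1 lies in an intron of POLH, the translesion DNA polymerase eta, and went from 0.967, 1.41 and 2.22 to 6.35, 5.79 and 5.5 CPM in WT cells (3.85-fold). POLH rose by 1.85 on the log2 scale. AC093495.1 overlaps the end of XPC, a DNA damage sensor, and rose 5.84-fold beside XPC (log2 2.55, SE 0.26, and 2.44, SE 0.08). In KO cells POLH-AS1 rose 4.84-fold and AC093495.1 6.94-fold. CDKN2B-AS1, the antisense RNA of the INK4 locus that is also called ANRIL, did not pass in WT (-0.26, SE 0.22, adjusted p = 0.369) or KO cells (0.06, adjusted p = 0.840). Its partner CDKN2B, the gene of the cell cycle inhibitor p15, rose from 61.9, 65.7 and 76.4 to 122, 123 and 127 CPM in WT cells (0.86, SE 0.13). No member belonged to the HOX clusters, and no partner was on the list of mitosis and replication genes.

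The members that contain microRNA genes on their own strand, AC020916.1, DLEU2, GABPB1-AS1 and ENTPD1-AS1, did not share a direction. AC020916.1, which contains MIR23A, MIR27A and MIR24-2, ranged from 16.4 to 27 CPM over the 12 libraries and did not pass in WT (0.12, adjusted p = 0.660) or KO cells (-0.10, adjusted p = 0.693). DLEU2, which contains MIR15A and MIR16-1, was lower in KO cells (-0.57, SE 0.19, adjusted p = 0.0264), and without KO control library 2 it no longer passed (-0.36, adjusted p = 0.112). In WT cells DLEU2 did not pass (-0.22, adjusted p = 0.379). GABPB1-AS1, which contains MIR4712, rose in WT cells from 6.31, 10.2 and 8.43 to 17.3, 16.5 and 13.6 CPM (0.92, SE 0.21, adjusted p = 0.00281). In KO cells it did not pass with all libraries (0.50, adjusted p = 0.0716) and passed without KO control library 2 (0.78, adjusted p = 0.000653). ENTPD1-AS1, which contains MIR3157, was higher in KO cells with all libraries (0.69, SE 0.22, adjusted p = 0.0213) and without KO control library 2 (0.45, adjusted p = 0.0471), and did not pass in WT cells (0.46, adjusted p = 0.0995). DLGAP1-AS2 went from 2.19, 3.45 and 2.92 to 10.9, 13.1 and 11 CPM in WT cells (4.07-fold), while DLGAP1, whose intron holds it, stayed at or under 0.326 CPM in every library.

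Called partners moved with their antisense gene more often than against it, and many partners did not pass. Of the 50 members that rose in WT cells, 43 had a tested partner. It rose in 20, fell in 7 and did not pass in 16. Of 22 that fell, 19 had a tested partner, which fell in 12, rose in 1 and did not pass in 6. In KO cells the partners of risers rose in 19 of 42 and fell in 5, and those of fallers fell in 11 of 20 and rose in 1. The 156 partners tested comprised 34 that rose and 35 that fell in WT cells, and 34 and 30 in KO cells. The pattern was not particular to members. Among antisense genes under the rule count, partners of WT risers rose in 75 of 122 and fell in 7. Those of WT fallers fell in 17 of 32 and rose in 4. For KO cells the same-direction numbers in that class were 60 of 124 risers and 18 of 32 fallers, with 9 and 6 opposite. Across 157 pairs the log2 fold changes of member and partner had a Pearson r of 0.60 (Spearman rho 0.42) in WT and 0.66 (0.45) in KO cells. Both genes of a pair come from the same libraries, and genes are not independent replicates. The member counts and the correlations include members that reach the rule through only 1 medium, whose change the rule favours. They are not given without those members. For the 68 pairs with over 50% of the antisense exon bases in sense introns r was 0.67 in WT cells, and for the 53 with under 10% it was 0.65. The KO values were 0.67 and 0.76. Neither class is known to be free of reads from the sense strand.

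The antisense to sense ratio was tested with limma on log2 of the counts, each plus 0.5, over 802 pairs of antisense genes and partners. In WT cells the ratio was higher for 19 and lower for 5 of the 157 member pairs, where 9.98% of all pairs were called (7.11% higher, 2.87% lower). Without KO control library 2 it was 28 and 10. In KO cells it was higher for 14 and lower for 3, where 8.98% were called (6.61% higher, 2.37% lower). The KO calls without KO control library 2 are given only within the range over all left-out libraries at the end. Some members reach the rule through high antisense counts in bleomycin, which favours a higher ratio for them. They include AL035681.1, AC010457.1, C1QTNF1-AS1 and AC022075.1. The excess of higher ratios among members is thus a description, and ratio calls without such members are not given here. The ratio of AL035681.1 to L3MBTL2 moved most, by 5.71 (SE 0.45, limma adjusted p = 8.75e-06) in WT and 5.06 (SE 0.45) in KO cells on the log2 scale. That of LUCAT1 to ADGRV1 fell by 4.91 (SE 0.52) in WT and 3.36 (SE 0.52) in KO cells, on the low ADGRV1 counts given above.

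GAS6-AS1 and GAS6, the ligand gene of the TAM receptor kinases, moved in opposite directions. GAS6-AS1 had 2.44, 4.36 and 4.27 CPM in WT control and 26.4, 27.9 and 15.9 in WT bleomycin, while GAS6 had 412, 480 and 490 and then 282, 253 and 298 CPM. Both changes passed (log2 2.66, SE 0.24, and -0.73, SE 0.21), as did the ratio (3.39, SE 0.37, adjusted p = 9.12e-05). The ratio rose by 2.81 in KO cells (SE 0.37). Of the exon bases of GAS6-AS1, 93.3% lie in introns of opposite-strand genes. AC010457.1 gained 3.08 over EGFLAM in WT cells (SE 0.52, adjusted p = 0.00234), an 8.47-fold change that was 5.14-fold without WT control library 3. C1QTNF1-AS1 gained 2.47 over C1QTNF1 (SE 0.33). In KO cells AC022075.1 gained 2.47 (SE 0.37) over KLRC4-KLRK1, a readthrough gene of natural killer cell receptors under 1 CPM in every library. AC008966.1 gained 1.71 over MOCS2, a molybdenum cofactor gene (SE 0.43, adjusted p = 0.0253), a call lost without any of the 3 KO bleomycin libraries in turn (adjusted p 0.0533 to 0.0928). In KO control AC008966.1 had 3.87, 1.18 and 3.61 CPM, the 1.18 in library 2.

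SNHG12 and TRNAU1AP, a selenocysteine tRNA factor, also diverged in WT cells (1.14 and -0.56, ratio adjusted p = 0.00156). So did STXBP5-AS1 and STXBP5, the gene of the exocytosis inhibitor tomosyn, which start 189 bases apart head to head. STXBP5-AS1 went from 5.49, 4.72 and 3.73 to 18.4, 17.7 and 16.7 CPM, and STXBP5 from 52.7, 54.1 and 48.7 to 40.2, 37.0 and 37.7.

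**Figure D5:**
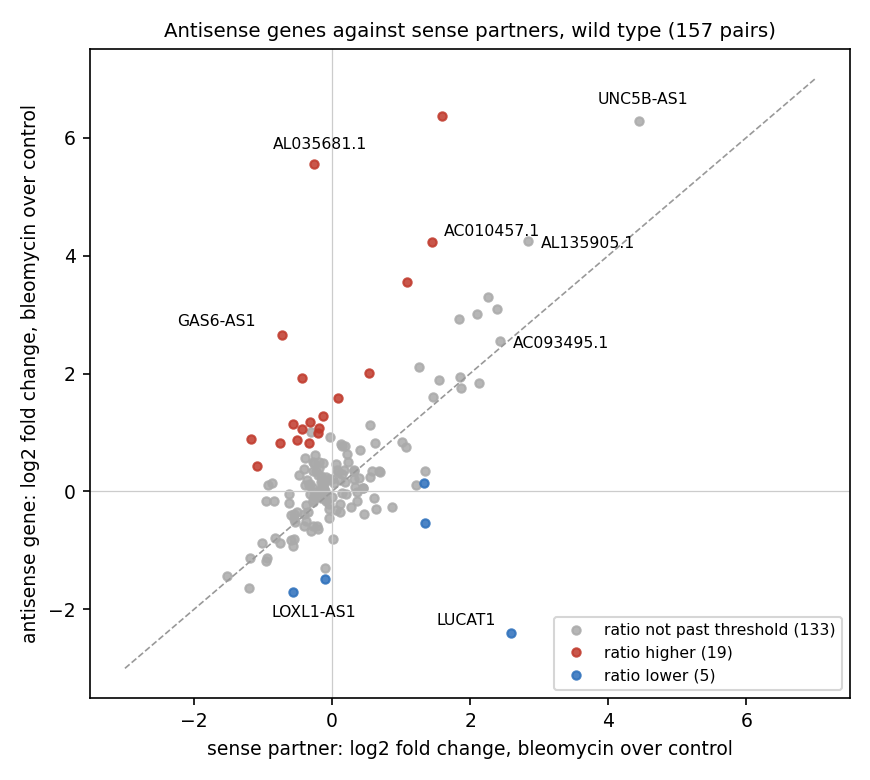
Log2 fold change under bleomycin in wild type cells of each antisense gene (y axis) against its sense partner (x axis) for 157 pairs, with pairs called in the limma ratio test in red (19 higher) and blue (5 lower). The dashed line marks equal change. AL035681.1 lies at 5.56 against -0.26, and LUCAT1 at -2.40 against 2.60.

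Calls by position relative to the partner in WT cells were 18 higher and 5 lower of 54 tail to tail pairs, 11 and 9 of 55 head to head pairs and 15 and 6 of 45 members inside the sense gene. With over 50% of exon bases in opposite-strand introns, 26 of 77 members were higher and 9 lower, and with under 10%, 18 of 65 were higher and 7 lower. Over all genes tested 23.9% were higher and 19.6% lower, and 25 of the 50 higher members are among those that reach the rule through the bleomycin libraries. These shares were not tested against each other.

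Summed over all members, counts per megacount were 1422 ± 128 in WT control, 1751 ± 88.9 in WT bleomycin, 1432 ± 29.1 in KO control and 1662 ± 10.8 in KO bleomycin (SD, n = 3). The members were chosen on these counts, and more of them reach the rule through the bleomycin libraries than through control, so the sums are a description. Over the 140 members that would reach it in both media the sums were 1322 ± 121 and 1496 ± 79.7 in WT cells, where the groups overlapped, and 1337 ± 33.9 and 1434 ± 18.5 in KO cells, where they did not (SD, n = 3). Between genotypes the sum over all members gave a two-sided exact permutation p = 1.0 in control medium and 0.4 in bleomycin, where 0.1 is the smallest that 3 libraries against 3 allow.

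Knockout against wild type called no member in either medium. In control medium edgeR called 0 of 183 members and 0.168% of all genes, and 17 members had an unadjusted p under 0.05 (9.29%, against 9.94% of all genes). The smallest adjusted p was that of STXBP5-AS1 (0.68, SE 0.17, adjusted p = 0.179), with 5.49, 4.72 and 3.73 CPM in WT control and 9.0, 6.22 and 7.16 in KO control, which do not overlap. Without KO control library 2 it passed (0.79, adjusted p = 0.0156), where 1.02% of all genes were called. DESeq2 called STXBP5-AS1 and SERTAD4-AS1 (1.39, adjusted p = 0.0255), with 1.64% of all genes called, and limma on log2(FPKM + 1) called 0. In bleomycin edgeR called 0 of 183 and 0.0479% of all genes, with 6 members at an unadjusted p under 0.05 (3.28%, against 6.6%). DESeq2 and limma called 0. Without KO control library 2, AC097478.1 (-0.52, adjusted p = 0.0116) and C1QTNF1-AS1 (-0.65, adjusted p = 0.0387) passed as lower in KO cells, where 1.71% of all genes were called. The middle 95% of member fold changes ran from -0.53 to 0.72 (log2) in control medium and from -0.38 to 0.45 in bleomycin.

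The bleomycin response was not called as different between the genotypes for any member. The interaction, tested with edgeR, called 0 members and 0% of all genes, and 8 members had an unadjusted p under 0.05 (4.37%, against 4.61%). DESeq2 and limma on log2(FPKM + 1) called 0. KO control library 2 enters the interaction directly and through the shared spread. Leaving it out raised the share of all genes called in both genotype comparisons, as given above. The interaction without it is not given here. AC097478.1 had the smallest adjusted p (-1.35, SE 0.30, unadjusted p = 0.000571, adjusted p = 0.795), for the 83.0-fold and 32.5-fold rises given above. The limma ratio test called 0 member pairs and 0% of all pairs in both genotype comparisons and in the interaction, with 5, 4 and 2 member pairs at an unadjusted p under 0.05.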

How the data were processed

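The authors deposited raw gene counts and, separately, FPKM, each for 12 libraries and 58735 genes. HISAT2 2.0.5 and featureCounts 1.5.0-p3 are named in the submitters' processing notes as the tools used. No build is named in the sources used here, and all 58735 gene positions and lengths equal GENCODE 29 on GRCh38. All rows named a gene. Members and lists were chosen with earlier results of these data known.

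Counts were tested with edgeR 4.0.16 in R 4.3.3 (filterByExpr, TMM, glmQLFit robust, 4 group means), which left 16702 genes. The 5 comparisons shared the fit, and Benjamini-Hochberg adjustment ran over all genes at 0.05. CPM are counts per megacount of the TMM-scaled library. Ratios of antisense to sense counts plus 0.5 were tested with limma 3.58.1 over 802 pairs. Named are the 6 members with the largest called rise and the 6 with the largest fall without overlap in each bleomycin comparison, the 6 largest called ratio changes, the 10 highest by FPKM, the genes beside the count threshold and list members (up to 5 each way in genotype comparisons, where none passed). The ratio of 1 named member is not reported here. Fold changes are fitted, SE is of the log2 value, and p-values measure the spread between these libraries. Alternatives were DESeq2 1.42.0, other size factors, no filter, limma on log2 of the deposited FPKM plus 1 or 0.1, another partner rule and pseudocount, a replicate block, and each library left out. Scripts were tested on simulated data.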

Additional observations from a re-analysis of the deposited data

How the results depend on the processing

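Of 855 comparisons of 19 named members with an alternative, 831 kept direction and side of the threshold, 24 lost the call and 0 reversed. The 19 were named for the largest called changes, which favours stability. Their lost calls concern SNHG10 and AC022075.1 in wild type cells, and UCKL1-AS1, AC097534.2 and the ratio of AC008966.1 in knockout cells. Without KO control library 2, SNHG7, not among the 19, changed sign in knockout cells. Over all members 3 of 49 higher and 5 of 22 lower knockout calls were lost in that setting. Leaving out libraries, members lower in knockout cells numbered 14 to 24 (22 with all; 14 without KO bleomycin library 3). The wild type ratio calls, 24 with all, were 14 with partners taken from the symbol and at most 38, without KO control library 2. The higher ones, 19 with all, were 10 with partners from the symbol, and the lower ones, 5 with all, were 9 with a pseudocount of 2 and 3 to 10 with a library left out. The knockout ratio calls, 17 with all, ran from 10 to 22 with a library left out, the higher ones, 14 with all, from 9 to 16, and the lower ones, 3 with all, ran from 1 to 6. Knockout against wild type in control medium, 0 members with all, gave 2 with DESeq2, 4 without a filter (STXBP5-AS1, SERTAD4-AS1, MSC-AS1 and AC022075.1) and at most 1 with a library left out. In bleomycin it gave at most 2. The difference of the summed share between media, 330 per megacount in wild type and 231 in knockout cells, was 173 and 97.499 over the 140 members that reach the rule in both media, a setting chosen after seeing the data that sums fewer members. The knockout difference was 270 over nuclear genes only. The genotype difference of that sum in control medium, 9.96, was -9.05 over nuclear genes and ran from -63.8 (without WT control library 1) to 52.9 with a library left out, with -6.84 without KO control library 2. The causes were not tested. Replicate numbers did not pair the samples (18 correlations of deviations, from -0.128 to 0.109). With a replicate block 71 members were called in wild type and 69 in knockout cells, the ratio calls were 23 and 14, and the genotype comparisons and the interaction called 0. Under other size factors or DESeq2 the median of all genes moved by at most 0.01 (log2). Low total counts, with a median of 1060 over 12 libraries, limit the precision for many members.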
